A study of Homo sapiens with 4 samples.

Results

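The azurophil granule genes were followed in THP1 monoblasts, a human acute monoblastic leukemia cell line that carries the fusion gene MLL-AF9. The group is defined by gene symbol and by no cutoff on measured values, though it was drawn up with earlier results of these data known: MPO, ELANE, PRTN3, AZU1, CTSG, LYZ, RNASE2, RNASE3, PRG2 and SRGN. Of these 10 genes, 9 were found among the 27193 gene names of the array, with 10 of its 34127 probes, since RNASE2 has 2 probes; LYZ, which encodes lysozyme, was not found by its symbol and was not analysed here. Cells had been transfected once with 30 nM of miR-511 mimic (hsa-miR-511-5p, a synthetic precursor that supplies the mature miRNA) or with 30 nM of negative control #1 mimic, and RNA was taken on day 2 of culture in a medium low in serum. There were 4 arrays in all: 2 independent experiments, called experiment 1 and experiment 2, each gave 1 array per mimic. All arrays carried RNA of this single line and lay on 1 slide. Labels were not checked against the level of miR-511 itself, because these arrays read messenger RNA.

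Azurophil granules are the primary granules of the neutrophil and monocyte lineage, and their contents are made mainly in the early precursors of those cells. Their best known proteins are myeloperoxidase and a family of serine proteases and their inactive relative, which are packed on the proteoglycan serglycin and released into phagosomes or outside the cell. RNASE2, RNASE3 and PRG2 encode granule proteins that are best known from eosinophils, although the ribonucleases are also expressed in monocytic and neutrophilic cells. In leukemia, expression of these genes is commonly used as a sign of the myeloid lineage and of the stage at which the cells are arrested.

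The mature miRNA that the mimic supplies is shown to make the seed visible. Its seed, bases 2 to 8 counted from the 5′ end, is in capitals in the sequence from the RefSeq miRNA table (GRCh38.p14):
hsa-miR-511-5p: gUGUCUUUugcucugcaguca
The letters complementary to that seed, AAAGACA, were searched on the sense strand of the probes. None of the 10 granule gene probes holds them, against 331 of all 34127 probes (0.97%). This describes only the 60 bases of each probe, since the rest of the transcripts was not searched.

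Every value for a gene below is read by a 60-base probe, and the probes whose values separate the experiments most, or that read the neighbouring protease genes of chromosome 19, are printed here in lower case, 5′ to 3′ in the sense of the transcript, with positions in hg19 as given in the files. The PRG2 probe lies on the minus strand at chr11:57156585-57156644. Both RNASE2 probes lie on the plus strand, at chr14:21424175-21424234 for the brighter one and chr14:21424239-21424297 for the dimmer one. Those of AZU1, PRTN3 and ELANE lie within a short stretch of the plus strand of chromosome 19, at chr19:831799-831858, chr19:847827-847886 and chr19:853356-855575.
PRG2: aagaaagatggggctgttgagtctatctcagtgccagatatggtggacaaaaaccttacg
RNASE2, brighter probe: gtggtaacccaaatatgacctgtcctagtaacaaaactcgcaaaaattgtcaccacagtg
RNASE2, dimmer probe: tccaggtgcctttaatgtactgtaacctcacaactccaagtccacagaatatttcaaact
AZU1: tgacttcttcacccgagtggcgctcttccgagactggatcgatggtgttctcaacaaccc
PRTN3: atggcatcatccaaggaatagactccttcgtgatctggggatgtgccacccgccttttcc
ELANE: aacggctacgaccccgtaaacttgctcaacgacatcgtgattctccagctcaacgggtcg
The interval of the ELANE probe is much longer than the probe and so crosses at least 1 intron, and the same holds for the RNASE3 probe at chr14:21359591-21359880, which is not printed. The remaining probes were those of MPO at chr17:56347868-56347927 (minus strand), CTSG at chr14:25042788-25042847 (minus strand) and SRGN at chr10:70863833-70863892 (plus strand). Whether a probe lies in coding or untranslated sequence was not analysed here. Each was printed once per array, so an array gave 1 spot for each probe. All 10 probes matched the same symbol in RefSeq through their accession. The accession fields of the RNASE3 probe and of the dimmer RNASE2 probe also list a transcript of the pseudogene RNASE2CP, so signal from a near-identical copy could not be told apart there. Between any pair of the 3 ribonuclease probes, the longest identical run was 7 bases.

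Intensities after background subtraction were put on the log2 scale and quantile normalized, which gives all arrays the same distribution. The markers of the labelled cell type were present: all 11 of the 12 monoblast or monocyte markers that had a probe were well above background, the call the scanner software makes for each spot, on all 4 arrays. An array had 22130 to 23647 probes above that limit, no spot was saturated, and any 2 arrays correlated at 0.992 to 0.996 across probes. All 10 granule gene probes were well above background on all 4 arrays. Among the markers of mature neutrophils, 4 of 5 had a probe and all 4 were well above background throughout. Of 12 genes for the later specific and gelatinase granules, 6 were well above background on all arrays and 6 on none. Both sets are named after their values were seen. The 6 on all arrays were CAMP, MMP9, CHI3L1, HP, TCN1 and CYBB. The 6 on none were LTF (lactoferrin), LCN2 (lipocalin 2), MMP8 (neutrophil collagenase), OLFM4, CRISP3 and PGLYRP1.

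**Figure D1:**
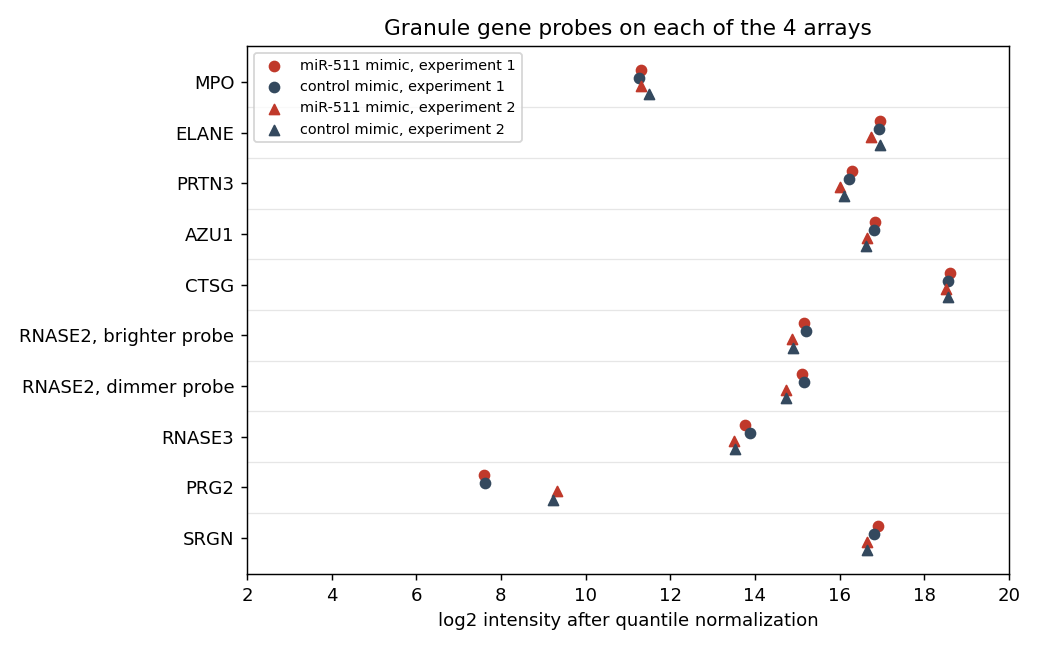
Log2 intensity after quantile normalization (horizontal axis) of the 10 granule gene probes (rows) on each of the 4 arrays, with color for the mimic and symbol shape for the experiment. Levels of different probes cannot be compared with each other; within a row, the arrays lie close together except for PRG2, whose 2 arrays of experiment 2 lie at 9.24 and 9.33 against 7.59 and 7.62 in experiment 1.

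The first question was whether the granule genes differed between miR-511 mimic and control mimic. They did not differ beyond the spread between arrays. None of the 10 probes passed limma's unadjusted threshold of p below 0.05, the threshold used in the study, or the adjusted one, and none had both miR-511 arrays on one side of both control arrays. Over all 22638 probes tested, 2.2% passed the unadjusted threshold (287 or 1.27% higher and 211 or 0.932% lower with miR-511 mimic), 25.7% had groups that did not overlap (15.6% higher and 10.1% lower), and none passed after Benjamini-Hochberg adjustment by limma (smallest adjusted p = 0.79). The fitted differences of the granule gene probes ran from -0.10 (ELANE) to 0.04 (SRGN) on the log2 scale, with a median of -0.02 beside 0.01 for all tested probes.

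Myeloperoxidase, encoded by MPO, is the heme enzyme that makes hypochlorous acid from hydrogen peroxide. Its log2 intensity was 11.30 with miR-511 mimic and 11.25 with control mimic in experiment 1, and 11.30 and 11.49 in experiment 2. The control array of experiment 2 was thus the highest of the 4, and the 3 others lay close together. The difference between the mimics was 0.05 in experiment 1 and -0.19 in experiment 2, and the fit over both gave -0.07 ± 0.12 (SE, n = 2 arrays per mimic).

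Neutrophil elastase, the product of ELANE, is one of the serine proteases that break down matrix and bacterial proteins. ELANE had a log2 intensity of 16.96 with miR-511 mimic and 16.93 with control mimic in experiment 1, and of 16.74 and 16.96 in experiment 2. Here a single array, that of the miR-511 mimic in experiment 2, lay below the 3 others. The mimics differed by 0.03 in experiment 1 and by -0.23 in experiment 2, which was the largest difference of either experiment among the granule gene probes, and the fitted value was -0.10 ± 0.12 (SE, n = 2 per mimic).

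PRTN3 encodes proteinase 3, a close relative of elastase and the target of many autoantibodies in vasculitis. It was measured at 16.30 with miR-511 mimic and 16.22 with control mimic in experiment 1, and at 16 and 16.1 in experiment 2. The sign of the difference between the mimics therefore turned, from 0.08 to -0.10, and the fitted value was -0.01 ± 0.14. AZU1 encodes azurocidin, a relative of the proteases that has lost its catalytic activity and acts as an antimicrobial protein. AZU1 gave 16.83 and 16.81 in experiment 1 and 16.64 and 16.63 in experiment 2, in the same order. It was the one probe of the granule genes that was slightly higher with miR-511 mimic in both experiments, by 0.02 each time, which is below the median SD of 0.06 that spots of one probe showed on the same array (17 probes of like brightness, each printed 10 times). Scaled to the 75th percentile of each array, AZU1 differed by -0.04 in experiment 1 and by 0.03 in experiment 2.

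Cathepsin G, the product of CTSG, is a granule protease with chymotrypsin-like and trypsin-like specificity. Its probe was among the 3 brightest probes of every array. Quantile normalization leaves almost no room for a difference at that end of the scale, because the brightest probe of each array is given the same value, and the log2 intensities of 18.61 and 18.57 in experiment 1 and of 18.52 and 18.57 in experiment 2 are to be read with that limit. The intensities before normalization were 360604 with miR-511 and 395449 with control mimic in experiment 1, and 389882 and 386471 in experiment 2. Scaled instead to the 75th percentile of each array, which sets no such limit, CTSG differed between the mimics by 0.12 in experiment 1 and by -0.10 in experiment 2. With either scaling the sign turned between the experiments.

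Both ribonucleases and their probes were slightly lower with miR-511 mimic in each experiment, by amounts no larger than 0.13 after quantile normalization. With 75th percentile scaling both RNASE2 probes were level between the mimics in experiment 2 (-0.003 for the brighter and 0.0009 for the dimmer). RNASE3 differed by -0.14 in experiment 1 with that scaling. RNASE2 encodes the eosinophil-derived neurotoxin, a ribonuclease with antiviral activity. Its brighter probe was at 15.15 with miR-511 mimic and 15.21 with control mimic in experiment 1, and at 14.88 and 14.91 in experiment 2. The dimmer probe, a few bases further along the transcript, was at 15.11 and 15.16 and then at 14.73 and 14.74. The arrays of one experiment lay closer together than those of one mimic at both probes. The fitted differences between the mimics were -0.04 ± 0.17 and -0.03 ± 0.22.

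RNASE3 encodes the eosinophil cationic protein, a ribonuclease that damages membranes of bacteria and parasites. RNASE3 gave 13.76 with miR-511 mimic and 13.88 with control mimic in experiment 1, and 13.50 and 13.54 in experiment 2. The difference was -0.13 in experiment 1 and -0.04 in experiment 2. The fitted value was -0.08 ± 0.17 (SE, n = 2 per mimic) and -0.08 ± 0.08 with the experiment as a block.

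PRG2 encodes the major basic protein of eosinophil granules, and SRGN encodes serglycin, the proteoglycan core to which the basic granule proteins bind. PRG2 was at 7.59 with miR-511 mimic and 7.62 with control mimic in experiment 1, and at 9.33 and 9.24 in experiment 2. The miR-511 array was the lower one in experiment 1 and the higher one in experiment 2, and the fitted difference was 0.03 ± 0.83. Its standard error was the largest of the granule gene probes because it contains the difference between the experiments; with the experiment as a block it was 0.03 ± 0.08. SRGN gave 16.90 with miR-511 mimic and 16.82 with control mimic in experiment 1, and 16.65 with either mimic in experiment 2. The difference of 0.07 in experiment 1 had shrunk to less than 0.01 in experiment 2.

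Across the granule gene probes the differences between the mimics lay between -0.13 and 0.08 in experiment 1 and between -0.23 and 0.09 in experiment 2. In experiment 1, 6 of the 10 probes were higher with miR-511 mimic and 4 were lower, beside 42.2% of all tested probes lower. In experiment 2, 8 of 10 were lower, beside 50.2% of all tested probes. The sign was the same in both experiments for 4 of 10 probes (AZU1, RNASE3 and both of RNASE2), beside 51% of all 22638 tested probes. The mimic effect in experiment 2 minus that in experiment 1 had a median of -0.04 over the granule gene probes and of -0.02 over all tested probes; 1 array per mimic and experiment left no test of this difference. With the experiment number as a block, none of the 10 probes passed the unadjusted threshold either (the smallest was that of RNASE3, with an adjusted p of 0.97 in limma).

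**Figure D2:**
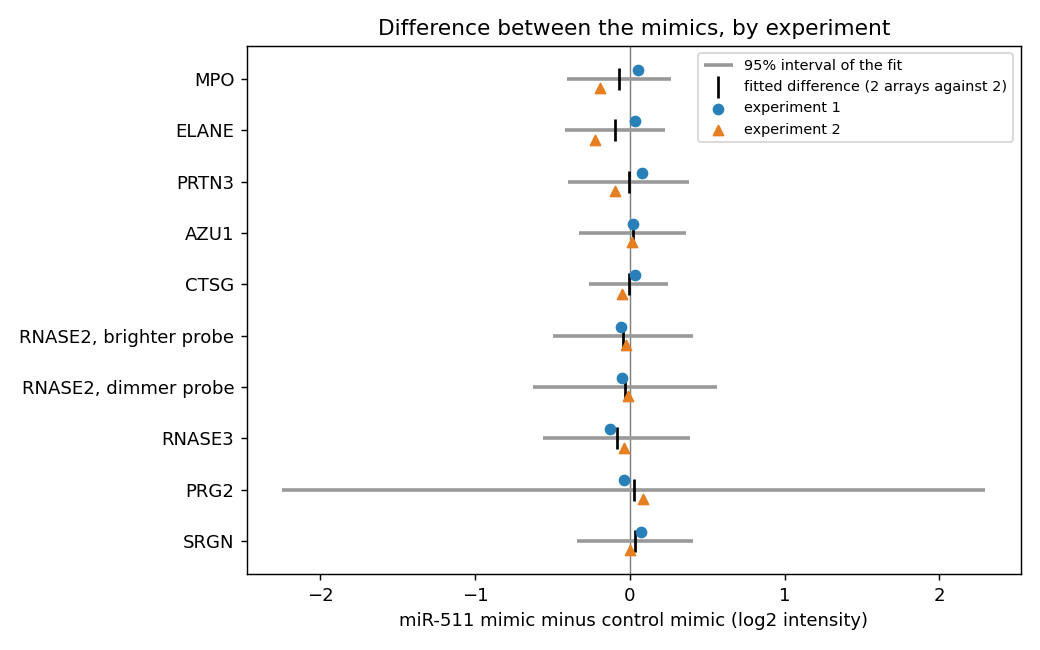
Log2 intensity with miR-511 mimic minus that with control mimic (horizontal axis) for each granule gene probe (rows). Circles are experiment 1, triangles are experiment 2, black ticks are the fitted differences over 2 arrays per mimic and grey bars their 95% intervals in limma's fit without a block. Every interval contains 0, and the long bar of PRG2, from -2.25 to 2.30, holds the difference between its experiments.

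The second question was how the granule genes changed between the 2 experiments, which used the same mimics and dose. Here 5 of 10 probes passed limma's unadjusted threshold, beside 14.1% of all 22596 probes tested: PRG2 was higher in experiment 2 (5.66% of all probes passed in that direction), and RNASE3, SRGN and both probes of RNASE2 were lower (8.46% of all probes). None passed after Benjamini-Hochberg adjustment by limma, among the granule genes or among all tested probes (smallest adjusted p = 0.063), although 3191 of the latter passed unadjusted. In 8 of the 10 probes the arrays of the experiments did not overlap, beside 49.4% of all tested probes; 1 was higher in experiment 2 (22.6%) and 7 were lower (26.8%). One of the 7 is CTSG, whose control arrays were tied to within 1e-05 by the normalization. With 75th percentile scaling the count was again 8, with 2 higher and 6 lower: CTSG overlapped and MPO was higher, its miR-511 arrays differing by less than 0.001. That count was added after the values had been seen. RNASE2 enters these counts with 2 probes. With each gene taken once by its brightest probe, 1 of 9 genes was called higher and 3 lower at the unadjusted threshold. On the quantile-normalized scale the experiments then did not overlap for 1 gene that was higher and 6 that were lower. The median difference was -0.20 over the granule gene probes and -0.01 over all tested probes. These values come from 2 arrays per experiment, 1 with each mimic, so the cells, transfection and RNA of an experiment cannot be told apart.

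PRG2 moved most. Before normalization its intensity was 169 with miR-511 mimic and 210 with control mimic in experiment 1, and 693 and 602 in experiment 2. Both arrays of experiment 2 lay well above both arrays of experiment 1, with no overlap. On the normalized scale PRG2 was higher in experiment 2 by 1.62 with control mimic and by 1.74 with miR-511 mimic. The fitted difference was 1.68 ± 0.07 (SE, n = 2 per experiment), which is 3.2-fold, with an unadjusted p of 2.3e-05 and an adjusted p of 0.12 in limma's test. By size it ranked as number 63 of the 22596 tested probes. With normexp background correction the difference was 1.36 and it passed the adjusted threshold (limma, adjusted p = 0.0298), and in all 13 alternatives together it lay between 1.36 and 1.72 with an unadjusted p of 0.00075 or less.

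The ribonucleases went the other way. The brighter RNASE2 probe had intensities of 30873 with miR-511 mimic and 39762 with control mimic in experiment 1, and of 33705 and 31340 in experiment 2, before the arrays were put on one scale. After normalization its difference was -0.30 between the control arrays and -0.27 between the miR-511 arrays. The fit gave -0.28 ± 0.07 (SE, n = 2 per experiment; limma, adjusted p = 0.27), a level 1.22-fold lower in experiment 2. The dimmer RNASE2 probe showed -0.42 between the control arrays and -0.39 between the miR-511 arrays, with a fit of -0.40 ± 0.07 (limma, adjusted p = 0.20) or 1.32-fold. The probes of the gene had the same direction and differed in size, and the dimmer one is the probe that lists RNASE2CP as well. RNASE3 was lower by 0.35 between the control arrays and by 0.26 between the miR-511 arrays. Its fitted difference was -0.30 ± 0.08 (limma, adjusted p = 0.29), or 1.23-fold.

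RNASE2 and RNASE3 are neighbours on chromosome 14 that arose by duplication. Since their probes moved together, the 250 bases before each start site are printed, from the RefSeq promoter table (GRCh38.p14, plus strand, a later build than that of the probes), at chr14:20955237-20955486 for RNASE2 and chr14:20891135-20891384 for RNASE3. Capitals mark the longest run that both windows share letter for letter, of 86 bases.
RNASE2: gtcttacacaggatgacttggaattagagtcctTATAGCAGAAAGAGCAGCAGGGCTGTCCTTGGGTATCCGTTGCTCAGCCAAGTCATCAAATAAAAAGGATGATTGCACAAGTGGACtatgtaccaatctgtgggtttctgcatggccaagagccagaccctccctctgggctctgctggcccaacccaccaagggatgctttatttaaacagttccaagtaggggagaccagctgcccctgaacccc
RNASE3: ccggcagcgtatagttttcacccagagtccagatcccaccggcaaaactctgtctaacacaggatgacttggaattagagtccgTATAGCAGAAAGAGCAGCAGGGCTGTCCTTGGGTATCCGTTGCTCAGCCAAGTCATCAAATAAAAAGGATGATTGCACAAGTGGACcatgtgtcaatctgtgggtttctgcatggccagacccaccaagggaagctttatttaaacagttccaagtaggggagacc
An alignment of the windows, with unpaired ends left free of penalty, held 192 identical bases in 301 columns (63.8%). Those columns count the gaps and the unpaired ends. The share therefore also reflects the offset of the windows against each other, and not only differing bases. Of 5 granule gene windows in the table, none holds TATAAA on either strand, beside 11.4% of 27305 windows of the same length. CCAAT is found in those of PRTN3 and RNASE2 (2 of 5, beside 32.7%). The letters GAGGAA, the core of many sites of the myeloid factor PU.1, are found in the windows of PRTN3 and CTSG (2 of 5, beside 23.4% of all windows) and not in those of the ribonucleases. The MYB motif AACNG is found in all 5, beside 70.8% of all windows. All were searched on both strands. Such matches describe the letters of a window and nothing more.

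The protease genes of chromosome 19, AZU1, PRTN3 and ELANE, lie side by side, and their differences between the experiments were small. AZU1 was lower in experiment 2 by 0.18 between the control arrays and by 0.19 between the miR-511 arrays. The fitted value of -0.18 ± 0.07 just missed the unadjusted threshold (limma, unadjusted p = 0.051, adjusted p = 0.36), and 6 of 13 alternatives put it below. PRTN3 was lower by 0.13 between the control arrays and by 0.30 between the miR-511 arrays. Its arrays did not overlap between the experiments either, and the fit of -0.21 ± 0.08 missed the threshold as well (limma, unadjusted p = 0.054, adjusted p = 0.36).

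ELANE did overlap between the experiments. It was 0.03 higher in experiment 2 between the control arrays and 0.23 lower between the miR-511 arrays, and the fit gave -0.10 ± 0.10 (SE, n = 2 per experiment). The next gene after ELANE with a probe is CFD, which encodes complement factor D, a serine protease as well. CFD was at 16.79 and 16.92 in experiment 1 and at 16.67 and 16.74 in experiment 2, with a fitted difference of -0.15 ± 0.08. On the other side of AZU1, PTBP1, a splicing regulator, had a fitted difference of 0.18 ± 0.10. Neither passed the unadjusted threshold. Genome neighbours were looked up after the values of the granule genes had been seen.

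SRGN was lower in experiment 2 by 0.17 between the control arrays and by 0.25 between the miR-511 arrays. The fit gave -0.21 ± 0.07 (SE, n = 2 per experiment; limma, unadjusted p = 0.041, adjusted p = 0.34), or 1.16-fold. With the mimic as a term in the fit the unadjusted p was 0.079, and with scaling to the 75th percentile it was 0.051. CTSG and MPO did not pass the threshold. CTSG differed by less than 0.01 between the control arrays and by -0.09 between the miR-511 arrays, under the limit that normalization puts on it, with a fit of -0.04 ± 0.07. With 75th percentile scaling these were 0.02 and -0.20, and the fit was -0.09 ± 0.09, which did not pass the threshold either. MPO was 0.24 higher in experiment 2 between the control arrays and level between the miR-511 arrays, with a fit of 0.12 ± 0.10.

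**Figure D3:**
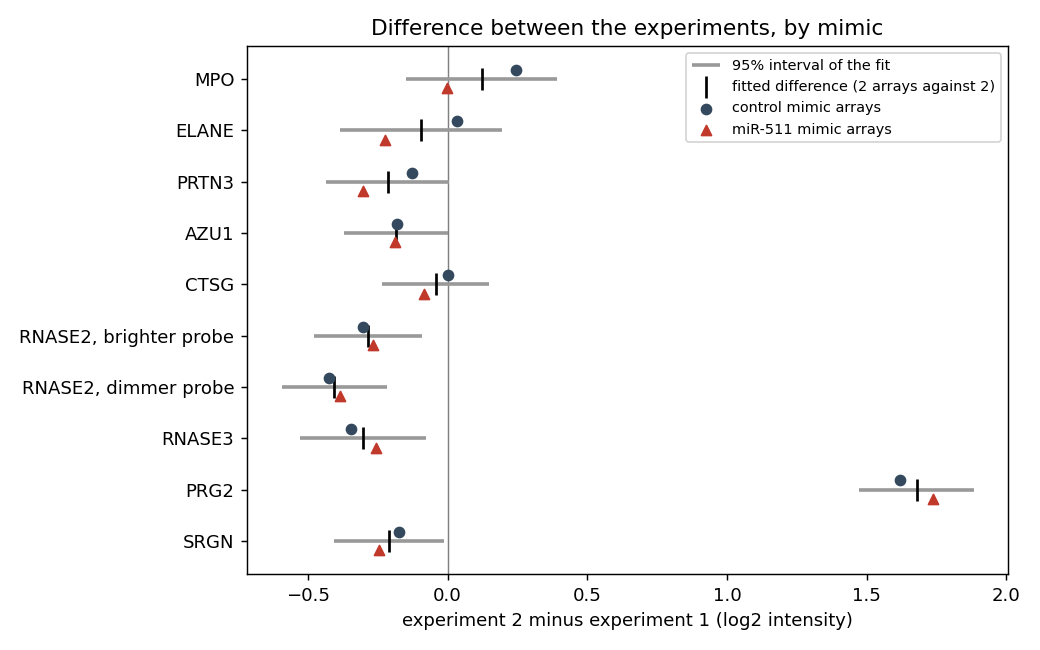
Log2 intensity in experiment 2 minus that in experiment 1 (horizontal axis) for each granule gene probe (rows). Circles compare the 2 control mimic arrays, triangles the 2 miR-511 mimic arrays, black ticks are the fitted differences over 2 arrays per experiment and grey bars their 95% intervals in limma's fit. PRG2 stands at 1.68, and the intervals of RNASE3, SRGN and both probes of RNASE2 lie below 0.

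The change between the experiments was also taken for each mimic. Over the 10 granule gene probes its median was -0.15 between the control arrays and -0.24 between the miR-511 arrays. Over all tested probes the medians were 0.003 and -0.03. The mimics differed most in MPO (0.24 with control mimic and level with miR-511 mimic), ELANE (0.03 and -0.23) and PRTN3 (-0.13 and -0.30); no test of this difference was possible with 1 array per mimic and experiment. Over the 1574 tested probes at least as bright as RNASE3, the median difference was 0.01 between the control arrays and -0.03 between the miR-511 arrays. For the 9 granule gene probes other than PRG2 the medians were -0.17 and -0.25. MPO, one of these 9, was dimmer than that limit. Whether brightness had a part in the lower values was not tested. Some monoblast markers were lower as well. Of the 11 with a probe, 5 were lower in experiment 2 at the unadjusted threshold (8.46% of all probes) and none higher, none passed after adjustment by limma, and the median of the 11 was -0.21. The 2 largest of those 5 were TYROBP (-0.44 ± 0.12) and CD68 (-0.29 ± 0.08), which encode an adaptor of activating receptors and a lysosomal glycoprotein. The 6 others did not pass. Named after their values were seen, they were ITGAX (-0.46 ± 0.18), SPI1 (-0.18 ± 0.09), CD4 (-0.14 ± 0.15), LYN (-0.07 ± 0.07), CD33 (-0.03 ± 0.08) and CD14 (0.21 ± 0.12). For 8 of the 11 markers both arrays of experiment 2 were the lower ones, as for 26.8% of all tested probes. For CD14 both arrays of experiment 2 were the higher ones, as for 22.6% of all tested probes. The summed level of the marker list was 91530 and 91760 in experiment 1 and 80960 and 71300 in experiment 2. TYROBP weighed most in this sum, as the brightest of the list on each array. It was at 15.42 and 15.44 in experiment 1 and at 15.13 and 14.84 in experiment 2. The part of these markers in the granule gene values was not tested, and fewer cells of a type and less RNA per cell cannot be told apart.

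PRG2 was set beside the other genes known from eosinophil granules and beside its neighbours. EPX, the eosinophil peroxidase, was at 6.24 with miR-511 mimic and 6.47 with control mimic in experiment 1, and at 7.37 and 7.23 in experiment 2. As with PRG2, both arrays of experiment 2 were above both of experiment 1, which held for 22.6% of all tested probes. The fit for EPX gave 0.95 ± 0.11 (limma, unadjusted p = 0.0012, adjusted p = 0.18), or 1.93-fold. Of the 5 markers in the eosinophil list 2 were bright enough to be tested, EPX and PRG3, and EPX passed the unadjusted threshold (5.66% of all probes passed in that direction). PRG3, a homologue of PRG2 and its neighbour on chromosome 11, was at 3.95 and 3.26 in experiment 1 and at 4.06 and 3.97 in experiment 2, with a fit of 0.41 ± 0.26 that did not pass (limma, unadjusted p = 0.19, adjusted p = 0.52). The neighbour on the other side, SLC43A3, is a purine transporter gene. It was at 11.34 and 11.28 and then at 11.39 and 11.38, with a fit of 0.07 ± 0.07. For PRG3 and SLC43A3 too, both arrays of experiment 2 were above both of experiment 1.

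Other markers of eosinophils were not well above background. This held on all arrays for CLC, which encodes the Charcot-Leyden crystal protein, and for SIGLEC8, a surface lectin. CCR3, the eotaxin receptor, was well above background on 1 array, that of the control mimic in experiment 1, where its single value of 8.68 stood against 3.56 to 3.69 on the 3 others. The summed level of the 5 eosinophil markers was 108.1 with miR-511 mimic and 514.6 with control mimic in experiment 1, and 200.9 and 187.4 in experiment 2. Without CCR3, which made up most of the second value, it was 96.3 and 104.4 in experiment 1 and 188.2 and 174.5 in experiment 2. Without EPX as well it was 20.5 and 15.8, and then 22.5 and 24.2. The part of eosinophil markers in the PRG2 value was not tested beyond this.

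Peroxidase genes of chromosome 17 gave a further comparison with MPO. LPO, which encodes lactoperoxidase and is the nearest gene before MPO with a probe, was at 3.83 and 4.03 in experiment 1 and at 4.40 and 4.41 in experiment 2. Its fitted difference was 0.47 ± 0.09 (limma, unadjusted p = 0.0077, adjusted p = 0.23) at a dim probe, while SUPT4H1, a transcription elongation gene on the other side, differed by 0.04 ± 0.07. Like EPX, LPO was higher on both arrays of experiment 2, as were 22.6% of all tested probes. The arrays of MPO overlapped on the quantile-normalized scale.

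**Figure D4:**
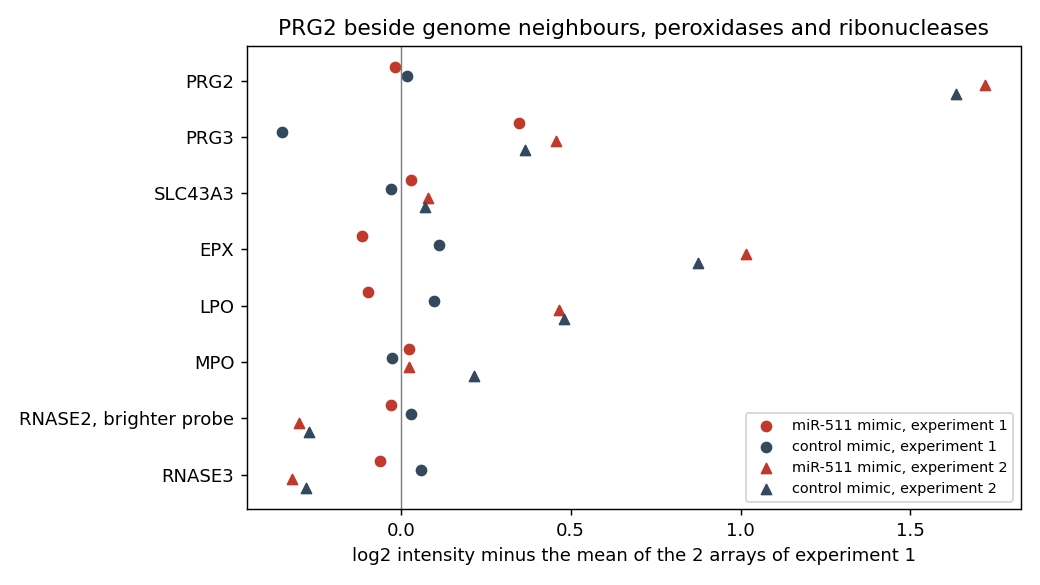
Log2 intensity on each array minus the mean of the 2 arrays of experiment 1 (horizontal axis) for PRG2, its genome neighbours PRG3 and SLC43A3, the peroxidase genes EPX, LPO and MPO, the brighter RNASE2 probe and RNASE3 (rows). Color gives the mimic and symbol shape the experiment; the arrays of experiment 2 lie to the right for PRG2 and EPX, to the left for the ribonucleases, and near 0 for SLC43A3.

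Genes that work with the granule proteins were counted as lists, with 58 of 72 tested. Between the mimics 1 gene was higher and 1 lower at the unadjusted threshold (3.45%, beside 2.2% of all probes). MMP9, the gelatinase of the later granules, was at 6.87 with miR-511 mimic against 6.31 with control mimic in experiment 1 and at 6.70 against 6.41 in experiment 2, with a fit of 0.42 ± 0.11 (limma, adjusted p = 1.0). DEFA3, which encodes a neutrophil defensin of the azurophil granules and has near-identical copies in the genome, was at 2.73 against 4.85 and then at 3.73 against 5.11, with a fit of -1.75 ± 0.37 (limma, adjusted p = 1.0). Its probe was well above background on 3 of 4 arrays. Both genes had both miR-511 arrays on one side of both control arrays, and neither passed after adjustment. Of all tested probes, 15.6% were higher and 10.1% lower with miR-511 mimic in this way.

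Between the experiments 10 of the 58 genes were lower in experiment 2 at the unadjusted threshold and none was higher, with a median of -0.13. That is 17.2% of the 58, beside 8.46% of all probes called lower and 14.1% called in either direction; the lists below are too short for a share of their own. None passed after adjustment by limma. Among other azurophil granule genes 1 of 10 was lower, GLB1, the lysosomal beta-galactosidase, with -0.22 ± 0.07. Among specific and gelatinase granule genes it was 1 of 6, CYBB, which encodes the large subunit of the phagocyte oxidase, with -0.37 ± 0.12.

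In the list of protease activators and inhibitors 2 of 11 were lower. SLPI, a secreted inhibitor of elastase and cathepsin G, was at 12.79 and 13.22 in experiment 1 and at 12.45 and 12.54 in experiment 2, with a fit of -0.51 ± 0.17. SERPINB6, an intracellular inhibitor of cathepsin G, had -0.32 ± 0.07. In the list of serglycin cargo and glycosylation 2 of 10 were lower, CHST12 and CHSY1, which sulfate and extend the chondroitin chains that serglycin carries, with -0.31 ± 0.07 and -0.30 ± 0.10.

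Of the transcription factors known to drive granule genes, 2 of 12 were lower. CEBPD, a C/EBP factor, was at 12.57 and 12.28 in experiment 1 and at 11.67 and 12.07 in experiment 2, with a fit of -0.56 ± 0.19. MYB, a factor of immature cells with a role in the early granule program, was at 16.69 and 16.58 and then at 16.44 and 16.24, with a fit of -0.30 ± 0.10. In a list of lysosome sorting genes, the chaperones CANX and CALR and the heme-degrading enzyme HMOX1, 2 of 9 were lower, SORT1, a sorting receptor, with -0.42 ± 0.07, and LYST, the gene mutated in Chediak-Higashi syndrome with its giant granules, with -0.21 ± 0.08. The differences of these named genes were of the same order as those of the ribonucleases and serglycin. The median over the tested genes was -0.04 for other azurophil granule genes and -0.11 for specific and gelatinase granule genes. It was -0.17 for protease activators and inhibitors and -0.15 for serglycin cargo and glycosylation. For the transcription factors it was -0.07, and for sorting, chaperones and HMOX1 it was -0.16. Over all tested probes it was -0.01. HMOX1 itself, named after its value was seen, had 0.71 ± 0.26 and did not pass.

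Markers of other lineages were mostly dim. Of 6 T cell markers 2 were well above background on all arrays and 2 on none, and their summed level was 109.1 and 117.8 in experiment 1 and 126.1 and 135.1 in experiment 2. CD2 and CD3D were higher in experiment 2 at the unadjusted threshold, by 0.68 ± 0.15 and 0.21 ± 0.07; the CD2 probe was well above background on 3 of 4 arrays. The 5 B cell markers, 3 of them well above background on all arrays, summed to between 1679 and 1815 per array. Of 5 erythroid markers 1 was well above background throughout and 2 on no array, and ALAS2, well above background on 3 of 4 arrays, was lower by 0.62 ± 0.09. For megakaryocytes the counts were 3 and 1 of 5, with sums of 2210 to 2643. For mast cells and basophils they were 1 and 1 of 4, with sums of 223.3 to 273.5, and CPA3 was higher with miR-511 mimic by 0.58 ± 0.14 at a probe well above background on 3 arrays. Mature neutrophil markers summed to 10740 and 10960 in experiment 1 and 9885 and 9747 in experiment 2. Among them CXCR2 was higher in experiment 2 by 0.41 ± 0.10 and CSF3R lower by 0.23 ± 0.07. The genes named in these lists passed the unadjusted threshold, and none passed after adjustment by limma. Of all probes, 5.66% were called higher and 8.46% lower between the experiments, and 1.27% higher with miR-511 mimic.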

How the data were processed

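Total RNA of THP1 cells was labeled with Cy3 and hybridized to single-color Agilent whole genome arrays. The authors deposited 1 scanner file per array, made with Agilent Feature Extraction (version 10.5.1.1 in the submitters' processing notes, 10.7.3.1 in the file headers). Its processed intensity is background-subtracted and not normalized between arrays. A quantile-normalized log2 table, also deposited, served as an alternative.

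Control spots and spots marked as outliers (232 to 301 per array) were left out, log2 of the processed intensity was quantile normalized as in the study's methods, and spots of a probe were averaged. A probe was tested when both arrays of 1 group or the other were well above background there; for a probe printed 10 times this needs more than 50% of its spots. R 4.3.3 and limma 3.58.1 (lmFit, eBayes) compared the mimics and, separately, the experiments, with 2 arrays on each side, and p-values are two-sided. An exact permutation of 2 arrays against 2 cannot give a p below 0.333. The precision is limited by this number of arrays. The functions were tested on simulated data.

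The experiment number pairs the arrays by the labels; deviations of same-numbered arrays from their mimic means correlated at 0.271. A gene with several probes is represented by the brightest in list counts. All granule gene probes are named; genes of other lists are named when among the 3 largest changes past the unadjusted threshold of their list, with exceptions said to be chosen later. One gene that this rule names is not reported here. The granule genes, lists and tests were chosen with earlier results of these data known. Alternatives were another scaling, background correction, filters, marked spots, the deposited table, an intensity trend, a block, the methods' t-test, a mean over both RNASE2 probes and leaving out each array. Probe positions are those of hg19 in the files, and symbols came from RefSeq.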

Additional observations from a re-analysis of the deposited data

How the results depend on the processing

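Between the mimics no granule gene probe passed the unadjusted threshold under any of the alternatives run, leaving out each array included. The count over all probes was 498; it was 265 with normexp background correction, 1029 with no filter on dim probes, 285 with an intensity trend in eBayes and 894 with the replicate block, which changed no other call for a granule gene probe, and 709 to 1440 without 1 array. The median change of the mimic effect over the granule gene probes was -0.04, and 0.021 with 75th percentile scaling. That scaling also turned the sign of the difference between the mimics for CTSG (0.012) and AZU1 (-0.0066). Leaving out 1 array turned the sign in at least 1 case for all 10 probes, with ranges of -0.21 to 0.016 for ELANE, -0.049 to 0.036 for CTSG, -0.19 to 0.051 for MPO, -0.16 to 0.14 for PRTN3, -0.19 to 0.11 and -0.24 to 0.18 for the brighter and dimmer RNASE2 probe, -0.26 to 0.089 for RNASE3, -0.84 to 0.89 for PRG2, -0.088 to 0.16 for SRGN and -0.074 to 0.11 for AZU1.

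Between the experiments the number of granule gene probes past the unadjusted threshold was 5; it was 8 with normexp correction, under which MPO, PRTN3 and AZU1 passed as well, and 2 to 4 without 1 array (PRG2 and the dimmer RNASE2 probe passed each time; 2 remained without the control array of either experiment or the miR-511 array of experiment 2). After adjustment the granule gene count was 0, and 1 with normexp correction, where the count over all probes was 3; that count was 1 with the methods' t-test and 0 otherwise. Over all probes 3191 passed unadjusted, and 1990 to 3421 without 1 array, the lowest without the control array of experiment 2. ELANE ranged from -0.21 to 0.016 without 1 array, and CTSG reached 3.0e-05 with normexp correction. The cause was not tested. A slide block was not run, since there was 1 slide.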
